A study of Mus musculus with 8 samples.

Results

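Heme, the iron porphyrin of hemoglobin and of cytochromes P450, is made by one chain of enzymes that is shared by hepatocytes and by the precursors of red cells. These 9 transcripts, out of 19540 genes measured, cover both sides of it. Those classed here as erythroid-only are Alas2, Car1, Slc4a1 and Epb42 (4 genes). The shared enzymes of heme synthesis are Alas1, Urod, Cpox, Ppox and Fech (5 genes). The members are the named genes, and the probe set that the platform annotation pairs with the gene symbol alone stands for each. Each of the 9 had 1 such probe set, so no choice between probe sets had to be made. The set was chosen by role with earlier results of these arrays known, among them the lower Car1 signal in HNF6KO and the brightness of probe sets over the 8 arrays. The differences of its members between the groups are therefore given as a description and without a test.

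The arrays compare livers depleted of HNF6 (HNF6KO, 4 arrays) with wild-type livers (WT, 4 arrays). HNF6 is a homeodomain transcription factor of the liver and is encoded by Onecut1. All mice were chow-fed C57B/6 males aged 12 weeks, without further treatment, and their livers were taken at ZT10 (10 h after lights on, given as 5 pm). How HNF6 was depleted, and in which cells, is not stated in the sources used here, nor whether each array is a separate animal, so the spread between arrays may be technical. The values read as log2 expression, ran from 3.69 to 14.1 and had array medians of 6.89 to 6.97. Signals of different probe sets are not compared as amounts of RNA. The number of arrays limits the precision.

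In mammals the first and rate-setting step of the chain, 5-aminolevulinate synthase, has a housekeeping isozyme, encoded by Alas1 and most active in liver, and an erythroid isozyme, encoded by Alas2 on the X chromosome. Hepatocytes use most of their heme for P450 enzymes, and heme feeds back on Alas1. Heme is also the ligand of the clock repressor REV-ERBα, which is named in the study's title. Adult mouse liver makes few red cells. Signals of erythroid genes in it can come from blood left in the tissue, from scattered precursors or from other liver cells. In bulk liver RNA, fewer cells of a type and less RNA per cell cannot be told apart.

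The sequences just before the start of 4 of these genes are shown because they set the erythroid isozyme, which differed between the groups, beside the housekeeping isozyme and beside an erythroid and a shared gene that differed little. They are the 250 bases before the annotated start, from RefSeq (GRCm38.p6), 5′ to 3′ on the strand of the gene. RefSeq windows were read for 6 of the 9 members, namely Alas1, Alas2, Epb42, Urod, Cpox and Ppox. Car1 and Slc4a1 had no window in the sequences used here. Fech was left out by a filter on its chromosome, so its window was not examined. Capitals mark words on either strand. The GATA words, bound by erythroid GATA factors, are AGATAA with its form ending in G (written AGATAG), and the same pair with a leading T, namely TGATAA as well as the form written TGATAG. The HNF6 words, cores of sites bound by HNF6, are ATCAAT as well as the form written ATCGAT.
Alas2 (chrX:150547167-150547416, plus strand): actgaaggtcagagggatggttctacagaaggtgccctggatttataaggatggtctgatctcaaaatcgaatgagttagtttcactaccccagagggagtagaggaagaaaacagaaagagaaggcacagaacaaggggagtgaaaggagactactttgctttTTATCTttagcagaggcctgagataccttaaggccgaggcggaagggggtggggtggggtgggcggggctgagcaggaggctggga
Alas1 (chr9:106247955-106248204, minus strand, the outer of its annotated starts): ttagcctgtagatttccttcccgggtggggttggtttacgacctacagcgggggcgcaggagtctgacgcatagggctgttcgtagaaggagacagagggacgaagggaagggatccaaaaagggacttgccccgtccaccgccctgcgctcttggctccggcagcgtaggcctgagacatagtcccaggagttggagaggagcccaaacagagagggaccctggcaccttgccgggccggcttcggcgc
Epb42 (chr2:121036878-121037127, minus strand): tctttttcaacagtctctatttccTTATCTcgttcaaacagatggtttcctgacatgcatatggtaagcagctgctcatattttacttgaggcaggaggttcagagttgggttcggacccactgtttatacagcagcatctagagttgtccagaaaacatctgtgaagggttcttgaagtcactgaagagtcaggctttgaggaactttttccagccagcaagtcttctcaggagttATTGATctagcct
Cpox (chr16:58669958-58670207, plus strand): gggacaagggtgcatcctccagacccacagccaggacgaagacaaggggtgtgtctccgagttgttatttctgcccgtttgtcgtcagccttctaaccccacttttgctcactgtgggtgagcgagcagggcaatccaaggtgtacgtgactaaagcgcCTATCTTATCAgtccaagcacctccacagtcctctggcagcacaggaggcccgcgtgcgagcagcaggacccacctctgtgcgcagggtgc

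The Alas2 window held 1 GATA word, 86 to 81 bases before the start, and the Cpox window held 2 that overlap by a base, between 91 and 81 bases before the start. In the Epb42 window a GATA word lay 226 to 221 bases and an HNF6 word 13 to 8 bases before the start. The Alas1 window printed here held neither. The windows not printed, those of Urod, Ppox and the inner start of Alas1, held neither as well. Of all 32851 RefSeq windows of this length, 26.5% held a GATA word and 7.4% an HNF6 word. A match is a run of letters, and binding was not measured here.

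Onecut1, the gene of HNF6, was lower in HNF6KO livers, at 9.32, 9.05, 8.67 and 8.70 on HNF6KO arrays 1 to 4 against 10.17, 9.87, 10.45 and 10.52 on WT arrays 1 to 4. This probe set passed the test over all genes, with a difference of -1.32 ± 0.18 (SE, limma, adjusted p = 0.0273). The part of Onecut1 that it covers is not stated in the sources used here, so its signal does not measure how much HNF6 was left. The call was lost without any 1 of HNF6KO arrays 3 and 4 or WT arrays 1, 3 and 4 (adjusted p of 0.0633 to 0.0954) and within arrays 1 and 2, where the difference was -0.83 (0.171). Within arrays 3 and 4 Onecut1 differed by -1.80 (limma, adjusted p = 0.0014).

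Among the erythroid-only transcripts, Alas2 and Car1 were about 2-fold lower in HNF6KO livers than in WT livers, while Slc4a1 and Epb42 differed little. Alas2 had log2 values of 9.32, 9.09, 8.39 and 8.53 on HNF6KO arrays 1 to 4, against 9.70, 9.82, 10.02 and 9.70 on WT arrays 1 to 4. Every HNF6KO array lay below every WT array, and within HNF6KO arrays 3 and 4 were the lowest. The Alas2 means were 8.83 ± 0.44 in HNF6KO and 9.81 ± 0.15 in WT (SD, n = 4 each), a difference of -0.98 or 1.97-fold. Car1 encodes a cytosolic carbonic anhydrase that is abundant in red cells and colon. It had log2 values of 9.03, 8.80, 9.03 and 8.80 on HNF6KO arrays 1 to 4, against 10.01, 10.04, 10.34 and 9.60 on WT arrays 1 to 4. The Car1 groups did not overlap either, and here the spread was on the WT side. Car1 averaged 8.91 ± 0.13 in HNF6KO and 9.999 ± 0.31 in WT (SD, n = 4 each), a difference of -1.08 or 2.12-fold.

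The other erythroid-only pair encodes parts of the red cell membrane. Slc4a1, the gene of the anion exchanger that anchors the membrane to its skeleton, had 7.09, 7.04, 6.82 and 6.86 on HNF6KO arrays 1 to 4, against 6.94, 6.90, 6.94 and 7.17 on WT arrays 1 to 4. These groups overlapped over most of their range, and the difference of means was -0.03. The Slc4a1 means of 6.95 in HNF6KO and 6.98 in WT lay near the array medians of 6.89 to 6.97. Its probe set was dimmer than those of Alas2 and Car1, so its difference may be understated as well. Epb42, a skeletal protein that binds that exchanger, had 5.51, 5.45, 5.48 and 5.49 on HNF6KO arrays 1 to 4, against 5.53, 5.62, 5.55 and 5.61 on WT arrays 1 to 4. Its groups lay apart by a narrow margin, with a difference of -0.10 at a signal below the median of every array, where a change can be understated. The separation of Epb42 rests on that small difference and on a spread of only 0.02 in HNF6KO and 0.04 in WT (SD, n = 4 each).

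**Figure D1:**
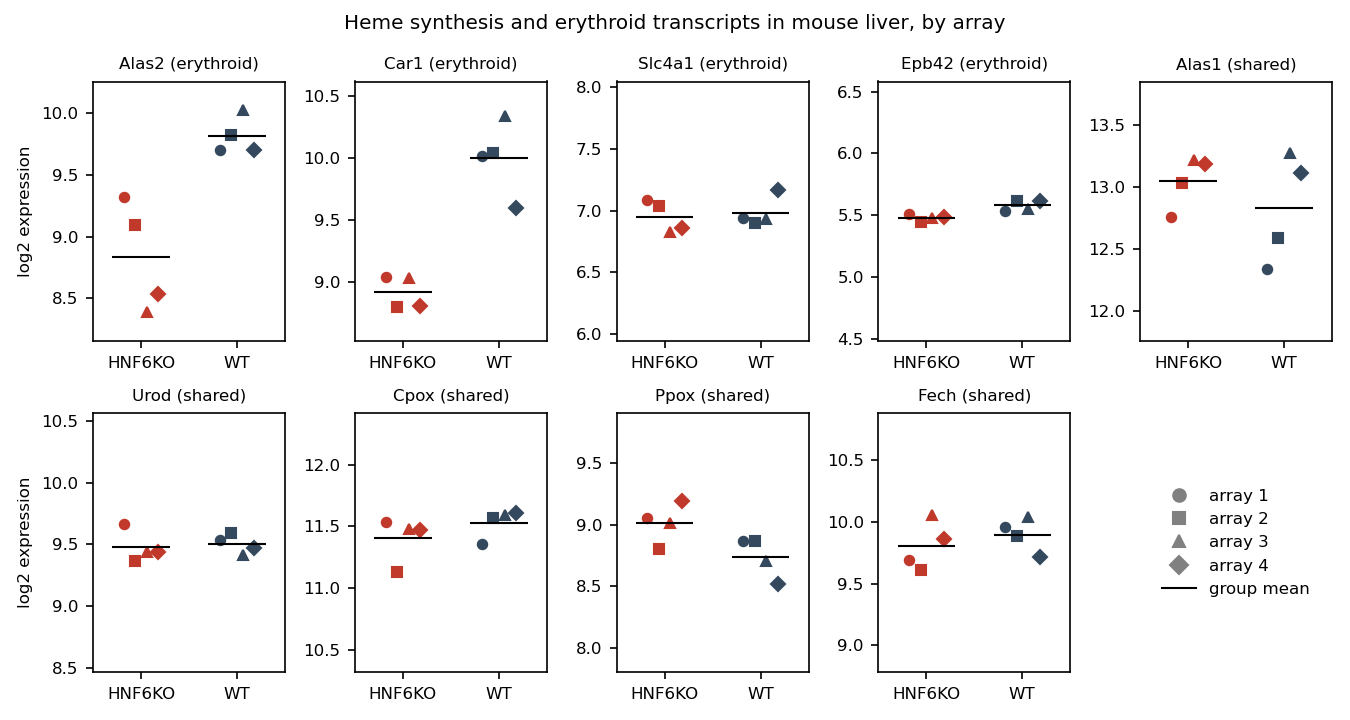
Log2 expression (y axis, the same span of values in each panel) of the 9 transcripts on the 4 HNF6KO arrays (red, left) and the 4 WT arrays (dark, right). Each point is 1 array, its shape gives the array number, and the line is the group mean. Alas2 and Car1 show HNF6KO arrays clearly below WT arrays, with differences of -0.98 and -1.08, while the other 7 means differ by 0.27 or less.

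The shared enzymes of heme synthesis overlapped between the groups for all 5 genes. Alas1 had 12.76, 13.03, 13.22 and 13.19 on HNF6KO arrays 1 to 4, against 12.34, 12.58, 13.27 and 13.11 on WT arrays 1 to 4. It averaged 13.05 ± 0.21 in HNF6KO and 12.83 ± 0.44 in WT (SD, n = 4 each), a difference of 0.22 that is smaller than the SD among WT arrays. Downstream of it, uroporphyrinogen decarboxylase (Urod) differed by -0.03, with values of 9.36 to 9.67 in HNF6KO and 9.41 to 9.59 in WT. Coproporphyrinogen oxidase (Cpox) differed by -0.12, with 11.13 to 11.54 in HNF6KO and 11.36 to 11.61 in WT.

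The last steps of the chain take place in mitochondria. Protoporphyrinogen oxidase (Ppox) had 9.05, 8.81, 9.01 and 9.19 on HNF6KO arrays 1 to 4, against 8.87, 8.87, 8.71 and 8.52 on WT arrays 1 to 4. Its difference of 0.27 was the largest among the shared enzymes, and HNF6KO array 2 fell inside the WT range. Ferrochelatase (Fech), which inserts the iron, differed by -0.09, with 9.61 to 10.06 in HNF6KO and 9.71 to 10.04 in WT.

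By class, the median difference was -0.54 over the 4 erythroid-only genes and -0.03 over the 5 shared enzymes, beside -0.01 over all 19540 genes. The erythroid-only median is the midpoint between a pair of genes near -1 and a pair near 0 and describes none of them. Groups lay apart, with HNF6KO lower, for 3 of the 4 erythroid-only genes (Alas2, Car1 and Epb42) and for 0 of the 5 shared enzymes. HNF6KO was higher with groups apart for 0 of the 9. Over all genes the groups lay apart for 5.67%, with HNF6KO lower for 3.21% and higher for 2.45%. Nothing is read from these counts, since the same contrast was in view when the genes were chosen.

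In both groups, mean signals of Kupffer and sinusoidal endothelial cell markers were lower on arrays 1 and 2 than on arrays 3 and 4. Some members moved with this split. The Alas2 difference was -0.56 on arrays 1 and 2, and on arrays 3 and 4 it reached -1.40. Its HNF6KO means were 9.20 (arrays 1 and 2) and 8.46 (arrays 3 and 4), against WT means of 9.76 and 9.86. Onecut1 had a larger difference on the same side, at -0.83 and -1.80. The Car1 difference was much the same on both sides, at -1.11 and -1.06. Alas1 differed by 0.43 within arrays 1 and 2 and by 0.01 within arrays 3 and 4, and its WT means moved most with the split, at 12.46 and 13.19. For Ppox the differences were 0.06 and 0.49. Slc4a1 (0.14 and -0.21) and Fech (-0.27 and 0.08) had opposite signs on the 2 sides. With 2 arrays per group on a side, these are values without a test.

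**Figure D2:**
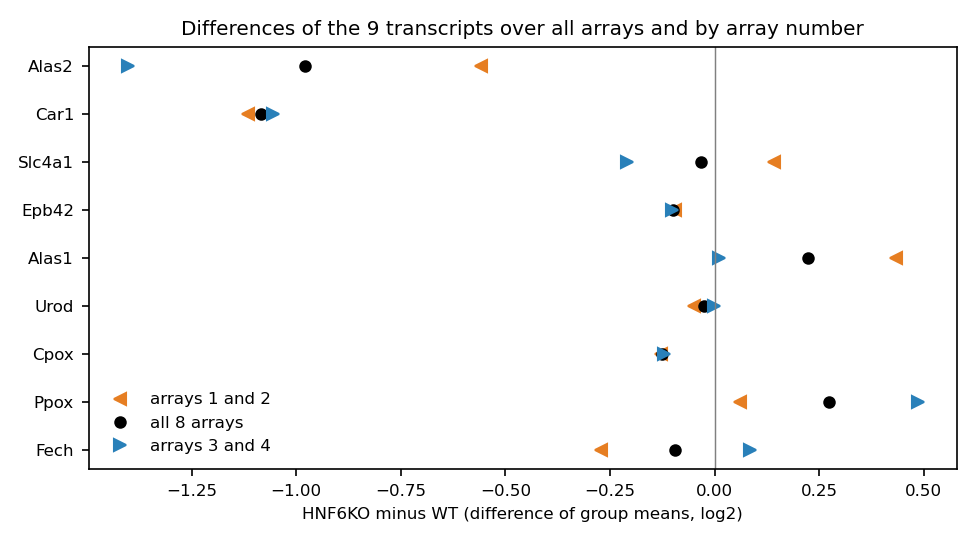
Difference of group means, HNF6KO minus WT, on the log2 scale (x axis) for each transcript (y axis), over all 8 arrays (circle), within arrays 1 and 2 (left-pointing triangle) and within arrays 3 and 4 (right-pointing triangle). Car1 stays near -1.1 on both sides, Alas2 moves between -0.56 and -1.40, and Slc4a1 and Fech change sign.

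Across the arrays of a group, the members did not move as one set. Over the 8 arrays, each as its deviation from its own group mean, Pearson's r of Alas2 was 0.27 with Car1, 0.58 with Slc4a1, 0.01 with Epb42 and -0.22 with Alas1. These coefficients describe the arrays in hand, which share the split by number. Alas2 varied more among HNF6KO arrays (SD 0.44) than among WT arrays (0.15), so its r rests mainly on the HNF6KO arrays. For Alas1 the WT arrays weigh more (SD 0.44, against 0.21 in HNF6KO). By the same measure, the genes most like Alas2 were Alx4, Tff1, Slc35d3, Slc2a4 and Gpr15 (r from 0.977 to 0.988 over 8 arrays). Those most like Alas1 were Cdc37l1, Cyp39a1, Hecw2, Ivns1abp and Hikeshi (r from 0.986 to 0.995). As many as 228 genes reached an r of 0.9 with Alas2 and 204 with Alas1, so the order at the top rests on small differences. None of the 10 genes passed the test between HNF6KO and WT (limma, adjusted p from 0.642 to 0.999).

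The other genes of the pathway were read from one limma fit over all 19540 genes, in which 78 genes, 0.399% of those tested, had an adjusted p under 0.05. HNF6KO was higher for 0.159% and lower for 0.241%. Of 77 measured genes on 7 lists around heme, 0 passed. An unadjusted p under 0.05 was found for 11 of them (14.3%) and for 1859 genes (9.51%) over all 19540. Their median difference was -0.03. Porphobilinogen synthase (Alad), the second enzyme, had 11.90, 11.13, 11.34 and 11.20 on HNF6KO arrays 1 to 4, against 11.45, 11.89, 11.59 and 11.59 on WT arrays 1 to 4. These ranges overlapped, and the difference was -0.24 ± 0.17 (SE, limma, adjusted p = 0.734). Uroporphyrinogen synthase (Uros) was at 7.97 ± 0.05 in HNF6KO and 7.80 ± 0.07 in WT (SD, n = 4 each), with every HNF6KO array above every WT array. Its difference of 0.17 ± 0.05 (SE) did not pass over all genes (limma, adjusted p = 0.306).

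Mitochondrial import and iron supply for heme gave 14 measured genes, of which 0 passed (2 at an unadjusted p of 0.05), with a median of -0.01. The protease gene Lonp1, whose product degrades ALAS1 protein, differed by 0.24 ± 0.05 (limma, adjusted p = 0.144). Abcb10, a mitochondrial transporter needed for heme synthesis in red cell precursors, differed by -0.19 ± 0.05 (adjusted p = 0.234). Both had groups that lay apart, as 5.67% of all genes did. The groups of Abcg2, Cyp3a11, Steap3 and Bcl11a, named below, lay apart as well. Of 10 regulators of Alas1, 0 passed and 1 had an unadjusted p under 0.05, with a median of -0.11. Of their differences 9 of 10 lay below 0, beside 11222 of all 19540 genes, and nothing is read from this count. Ppargc1a, a coactivator that raises Alas1 on fasting, stood at 9.28 ± 0.41 in HNF6KO and 8.84 ± 0.25 in WT (SD, n = 4 each), a difference of 0.44 ± 0.20 (SE, limma, adjusted p = 0.538). Nr1d1, which encodes REV-ERBα, differed by -0.76 ± 0.31 (adjusted p = 0.477), with a WT SD of 0.67.

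The fate of heme gave no call either. Of 14 genes of heme export, transport and binding, 0 passed and 2 had an unadjusted p under 0.05. The porphyrin exporter Abcg2 differed by -0.52 ± 0.15 (limma, adjusted p = 0.269) and Flvcr2, a transporter related to the heme exporter FLVCR1, by 0.28 ± 0.09 (adjusted p = 0.337). Of 4 measured genes of heme breakdown, 0 passed and 0 had an unadjusted p under 0.05. The heme oxygenase gene Hmox2 differed by -0.12 ± 0.09 (limma, adjusted p = 0.753). A further list held 18 heme proteins that were listed for hepatocytes, not all of them particular to those cells. Of these 18 genes 0 passed and 5 had an unadjusted p under 0.05 (9.51% over all genes), with a median of 0.02. The lowest p there belonged to Cyp3a11 (difference 0.21 ± 0.06), the sterol hydroxylase Cyp27a1 (-0.33 ± 0.10) and the tryptophan dioxygenase Tdo2 (0.20 ± 0.07), with adjusted p from 0.229 to 0.377 in limma.

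Of the 15 carbonic anhydrase genes other than Car1, 0 passed and 0 had an unadjusted p under 0.05 (limma), and their differences ran from -0.16 to 0.21 with a median of -0.04. On mouse chromosome 3, Car1 lies between Car13 and Car3, and Car2 follows Car3. Car13 differed by 0.06 ± 0.04, Car3, a cytosolic isozyme of liver and muscle, by -0.06 ± 0.08, and Car2 by -0.12 ± 0.11 (limma, adjusted p = 0.723, 0.878 and 0.800). Of the 6 protein-coding neighbours of Alas2 on the X chromosome, 4 were measured (Tmem29, Apex2, Tro and Maged2). They differed by -0.08 to 0.07 (limma, adjusted p from 0.752 to 0.962).

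The 4 lists of other erythroid genes held 42 measured members, of which 0 rose, Zfpm1 fell and 41 did not pass (limma). An unadjusted p under 0.05 was found for 7 of them (16.7%), beside 9.51% over all genes. The median difference was 0.00, and 39 of the 42 (92.9%) differed by less than 0.25, much like the 93.7% of all genes that did. A difference as large as that of Alas2 was seen in 0 of the 42 and in 70 of all genes. The signals of 19 of the 42 lay below the median of all genes, where a change can be understated. The red cell membrane and skeleton gave 16 genes with a median of -0.02 and differences from -0.12 to 0.08. Within it Dmtn, an actin-bundling protein, differed by -0.12 ± 0.08 (limma, adjusted p = 0.679) and Art4, a blood group gene, by 0.08 ± 0.06 (adjusted p = 0.742). The globins analysed here were embryonic, with differences from -0.02 to 0.06 in 3 genes at signals below the array median. Klf1, the erythroid master regulator that was chosen after its values were seen, stood at 7.03 ± 0.14 in HNF6KO and 6.96 ± 0.12 in WT (SD, n = 4 each). The label of erythroid transcripts rests on the known roles of Alas2, Car1, Slc4a1 and Epb42, and Car1 is abundant in colon too. Which cells of the liver samples gave these signals was not tested. That Alas2 and Car1 differed by more than the 42 other erythroid genes is a description, since the low Car1 signal was known when the genes were chosen.

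Zfpm1 encodes FOG1, the cofactor of GATA factors, and is used by erythroid cells and megakaryocytes and also by other tissues. It had 8.89, 8.80, 8.72 and 8.63 on HNF6KO arrays 1 to 4, against 9.51, 9.39, 9.74 and 9.27 on WT arrays 1 to 4. Every HNF6KO array lay below every WT array. Zfpm1 fell 1.64-fold, a log2 difference of -0.71 ± 0.10 (SE, limma, adjusted p = 0.0315). Its call was lost without HNF6KO array 2, 3 or 4 or WT array 1 or 2, and within either pair of array numbers, with adjusted p of 0.0593 to 0.128 and differences of -0.83 to -0.60. Bcl11a, a repressor of globin genes on the same list, differed by 0.11 ± 0.05 (adjusted p = 0.514).

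Of 11 measured genes of erythroid iron supply, signalling and late maturation, 0 passed. Those of iron uptake are used by hepatocytes too. The transferrin receptor Tfrc had 8.25, 8.19, 8.86 and 8.67 on HNF6KO arrays 1 to 4, against 7.58, 7.24, 8.10 and 8.22 on WT arrays 1 to 4. HNF6KO array 2 lay just below WT array 4, and the difference of 0.71 ± 0.23 (SE) did not pass (limma, adjusted p = 0.344). When the array split entered the fit as a term, Tfrc passed (limma, adjusted p = 0.0101). The ferrireductase Steap3 differed by 0.22 ± 0.06 (adjusted p = 0.281) and the iron sensor Tfr2 by -0.22 ± 0.08 (adjusted p = 0.384).

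**Figure D3:**
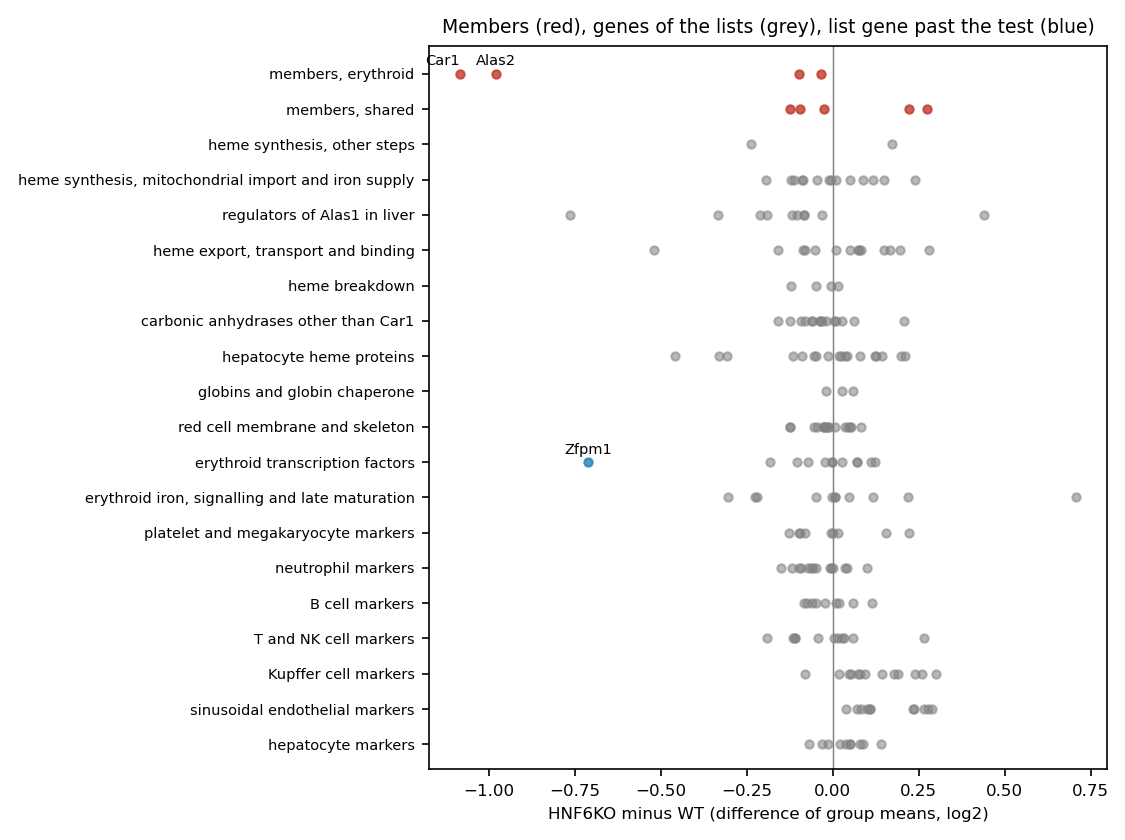
Difference HNF6KO minus WT on the log2 scale (x axis) for the 9 members (red, top rows) and for each measured gene of 18 lists (grey, rows named on the y axis). The one list gene that passed the test, Zfpm1, is blue, and Alas2 and Car1 lie to the left of every other point.

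Among markers of other cells that liver samples hold, 0 passed the test, and some followed the array numbers. Of 13 measured Kupffer cell markers 12 had a difference above 0 with a median of 0.09, beside 8318 of all 19540 genes above 0. Markers of a cell type can vary together, so nothing is read from such counts of signs. The mean level of the Kupffer markers ran from 7.52 to 9.10 on HNF6KO arrays and from 7.45 to 8.71 on WT arrays. It was 7.98, 7.52, 9.10 and 8.87 on HNF6KO arrays 1 to 4, so that the arrays with the lowest Alas2 had the highest Kupffer signal. On WT arrays 1 to 4 it was 7.45, 8.27, 8.56 and 8.71, while Alas2 stayed within 9.70 to 10.02. The 11 sinusoidal endothelial markers (11 of 11 differences above 0, median 0.11) followed the same split, at 8.40 to 9.44 in HNF6KO and 8.42 to 9.29 in WT. Their part in the Alas2 values was not tested, nor was that of Onecut1, which was lowest on HNF6KO arrays 3 and 4 as well. The 10 hepatocyte markers lay at 12.98 to 13.16 in HNF6KO and at 13.02 to 13.04 in WT. Among the other blood lists, 0 of 9 platelet, 0 of 14 neutrophil, 0 of 9 B cell and 0 of 11 T and NK cell markers passed, with 2 of these 43 genes at an unadjusted p under 0.05 (limma, 9.51% over all genes).

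**Figure D4:**
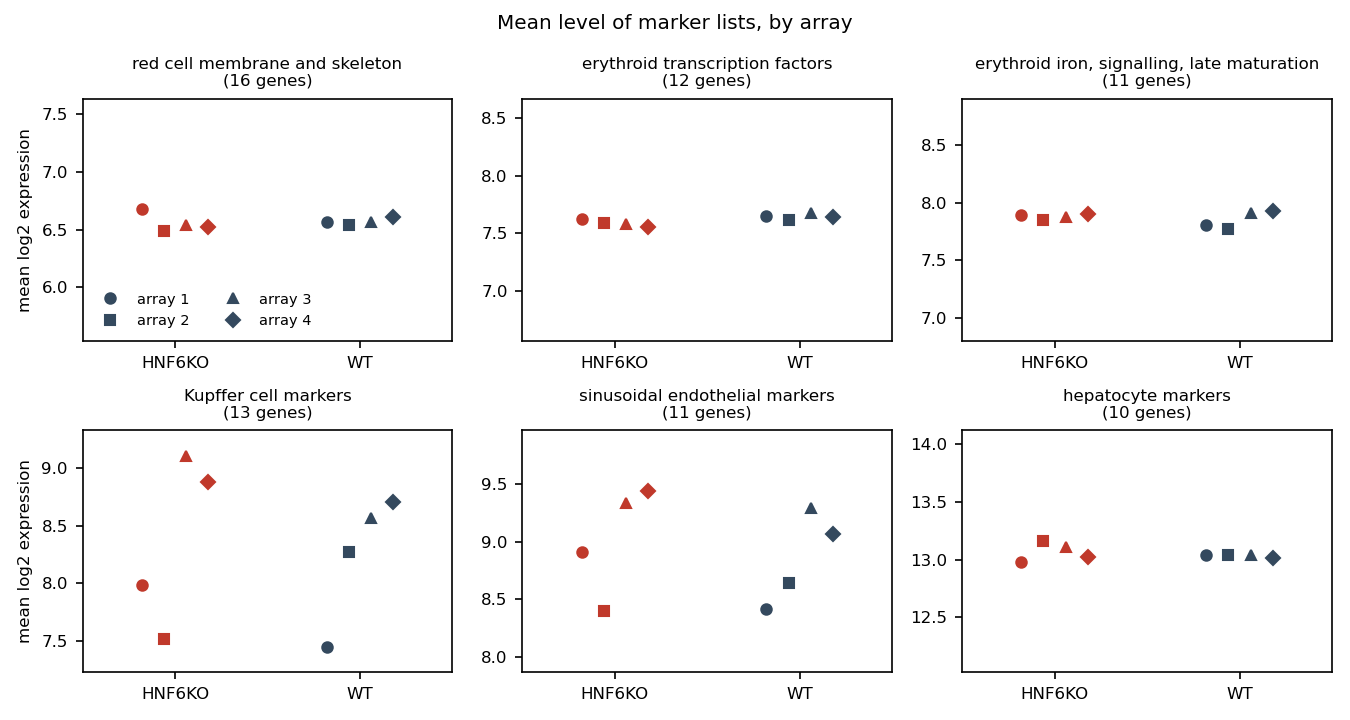
Mean log2 expression over the measured genes of 6 marker lists (y axis, the same span in each panel) on the HNF6KO arrays (red, left) and the WT arrays (dark, right), with the shape giving the array number. The 3 erythroid lists and the hepatocyte list vary little across arrays, and the Kupffer and endothelial lists are highest on arrays 3 and 4 of both groups.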

How the data were processed

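Total RNA of mouse liver, measured on 8 arrays, was extracted with Trizol and labelled with biotin by a whole-transcript kit, as the labels' protocols say. The authors deposited log2 values for 22725 probe sets in 1 table. The log base is inferred from the values, and the sources used here do not state how background, normalization and summarisation were handled. The platform annotation paired 21113 probe sets with a single gene symbol (43 with several, 1569 unnamed here). The brightest probe set by mean over the 8 arrays stood for a gene, which left 19540 genes. HNF6KO and WT were compared with limma 3.58.1 in R 4.3.3 (lmFit and eBayes, no covariate), and p-values were adjusted by Benjamini-Hochberg over the 19540 genes, with calls at 0.05. The step was tested on simulated data. Their noise was independent between genes and held no array split, so that test does not show how such structure affects the calls here.

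The 9 members, 18 gene lists (195 genes measured of 224) and tests were chosen with earlier results of these data known. Genes named besides the members are Onecut1, list genes past the threshold, up to 3 further genes per list by smallest p and 2 by highest level, and the 5 genes most like Alas2 and Alas1. Klf1, Car2, Car13, the neighbours and the sequence words were chosen after values were seen. Arrays of the same number deviated together unevenly (r of 0.44, 0.17, 0.51 and 0.02), so the number is not taken as a pairing. Alternatives were other normalizations, a filter, a variance model, other probe set choices, the array number or split as a term, and each array left out.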

Additional observations from a re-analysis of the deposited data

Results flagged for a closer look

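In 6 of the 70 groups of 4 arrays behind the members and the named genes, 1 array lay far from the other 3, where chance flags about 1 group in 20. Among the members, Slc4a1 stood at 7.17 on WT array 4, above 6.90 to 6.94 on the other WT arrays. Cpox stood at 11.13 on HNF6KO array 2, below 11.47 to 11.54, and at 11.36 on WT array 1, below 11.57 to 11.61. HNF6KO array 2 was also low for Abcg2, at 9.29 against 9.92 to 10.01. Steap3 stood at 8.11 on WT array 2, above 8.02 to 8.03, and Tfr2 at 10.53 on WT array 3, below 10.68 to 10.70.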

How the results depend on the processing

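Over 18 alternatives, Alas2 (-1.40 to -0.56), Car1 (-1.22 to -0.97), Alas1 (0.01 to 0.43), Cpox (-0.18 to -0.03) and Ppox (0.06 to 0.49) kept their sign. Epb42 kept it in 17 (-0.11 to -0.08), and the filter on dim genes removed it, so that no erythroid-only median was computed there. Slc4a1 (15 of 18), Urod (16 of 18) and Fech (17 of 18) did not always. The erythroid-only median was -0.33 within arrays 1 and 2 and -0.62 to -0.47 with single arrays left out. The shared median stayed between -0.06 and 0.01. The count of 78 genes was 125 with the array number as a replicate block, 245 with the array split as a term, 22 within arrays 1 and 2, 77 within arrays 3 and 4 (50 higher, 27 lower), and 16 to 79 with single arrays left out. The 1 list gene called became 2 with the block (Tfrc added, adjusted p = 0.0267), 3 with the split as a term (Tfrc and Lonp1 added, limma adjusted p of 0.0101 and 0.0400), 0 within arrays 1 and 2, 0 within arrays 3 and 4, and 0 to 1 with single arrays left out. Klf1 reversed to -0.0064 within arrays 3 and 4 and Car2 to 0.15 within arrays 1 and 2. The cause was not tested. Dim probe sets such as that of Epb42 can understate change, and whether they did was not tested.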
